A study of Mus musculus with 18 samples.

Results

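The mouse histone genes were described in 18 poly(A)-based RNA-seq libraries from fibroblasts that carry RelA(TA2), RelA(S276A) or RelA(wt), before and after TNFα. The members were the gene names of the merged annotation that begin with Hist1h, Hist2h, Hist3h or Hist4h, together with the 9 single genes H1f0, H1fx, H2afj, H2afv, H2afx, H2afy, H2afz, H3f3a and H3f3b, and a member needed an assembled transcript in at least 2 libraries. Of 74 such names among 23212 gene names, 65 lay in the histone clusters and 9 were single genes. A transcript was assembled in at least 2 libraries for 19 of the 74, 11 cluster genes and 8 single genes, out of 12300 genes of the whole series that met the same condition. The other 55 names, H1fx among them, had no transcript in any library. Of the 19, 17 passed the filter of at least 1 FPKM in at least 2 libraries and were tested, and Hist1h3i and Hist2h3c2 did not pass.

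All cells were immortalized embryonic fibroblasts of rela-/- mice, reconstituted by a retrovirus that carries a puromycin marker with a mouse RelA cDNA. RelA is an NF-κB subunit with a transactivation domain, and the paper calls it the most potent member of the family. The RelA(TA2) protein holds the substitutions L449A and F473A in the TA2 part of that domain, through which RelA binds the TAZ1 domain of the co-activators CBP and p300. The RelA(S276A) protein has alanine in place of the serine of the Rel homology region whose phosphorylation bears on binding to the KIX domain of CBP/p300. RelA(wt) cells received the unchanged protein. Each line was left untreated or received 5 ng/ml TNFα for 1 h or 2 h, with 2 independent replicates in each of the 9 conditions. Each RelA protein was studied in 1 reconstituted line, so an effect of the protein and any other difference between these lines cannot be told apart. In such bulk samples, fewer cells in S phase and less histone RNA per cell cannot be told apart either.

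Histones package DNA into nucleosomes, made of H2A, H2B, H3 and H4, with the linker histone H1 outside. The genes of the histone clusters are mostly replication-dependent. Their mRNAs are made in S phase and end, instead of in a poly(A) tail, in a short stem-loop that is bound by the stem-loop binding protein Slbp and cut a few bases further on. Replacement and variant histones such as H3.3 and H2A.Z come from single genes whose mRNAs are polyadenylated and made throughout the cell cycle. A number of cluster genes can also yield polyadenylated mRNAs, by reading past the stem-loop to a poly(A) signal downstream. Libraries made from poly(A) RNA therefore see the ordinary cluster mRNAs poorly and their polyadenylated forms well.

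Depth was 25.2 to 31.2 M mapped fragments a library (median 28.2 M), as recovered from the deposited values. The values are FPKM, fragments per kilobase of transcript, scaled per-million mapped fragments, summed over the transcripts placed on a gene. Because a short assembled piece can carry a high FPKM with few fragments, the fragments behind each value were also recovered. At loci with more than 1 transcript they were estimated from FPKM and transcript length. They were scaled to the library's fragments in genes, in per-million units (FPM). Rela itself had 315 to 366 FPKM in RelA(TA2) cells, 174 to 212 FPKM in RelA(S276A) cells and 156 to 187 FPKM in RelA(wt) cells. The log2 difference of Rela was 0.95 for RelA(TA2) against RelA(wt) (adjusted p = 3.53e-06 by limma), so the TA2 protein's transcript was not at the level of the wild-type one. For RelA(S276A) against RelA(wt) it was 0.10 (adjusted p = 0.313 by limma). Of that serine mutant, however, the paper reports a lower protein level than of the wild-type protein. RNA level shows neither the amount of protein nor the substitutions themselves. The part of RelA protein level in the histone differences between lines was not tested. All 8 fibroblast markers had a transcript in all 18 libraries, while 13 of the 22 listed markers of other cell types were at 0 in all of them, among them Ptprc, Pecam1, Cdh1, Epcam, Myod1 and Rbfox3. The other markers were not all absent. Cd68, Csf1r and Cd14 of leukocytes, Cdh5 of endothelium, Krt8 of epithelium, Des of muscle and Tubb3 of nerve had a transcript in all 18 libraries, with medians of 2.696 (Des) to 9.87 FPKM (Tubb3), and Kdr was found in 8 libraries and Acta1 in 3. Between lines, the fibroblast markers Fn1 (log2 difference 1.14) and Col1a2 (0.49) stood above the RelA(wt) level in RelA(TA2) cells, and Col1a1 (-0.31) below it in RelA(S276A) cells. Of the other markers, Cd68 (-0.83, adjusted p = 0.00573 by limma) and Cd14 (-0.47, adjusted p = 0.0131) were lower in RelA(TA2) cells and Tubb3 (-0.97, adjusted p = 0.000107) in RelA(S276A) cells. The part of these line differences in the histone values was not tested.

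The stem-loop is what separates the kinds of histone mRNA, and it is printed here for the 9 genes with a transcript whose model holds one within 100 bases after the stop codon. The capitals mark the 16 letters of the 6-base stem, the 4-base loop and the second arm of the stem, with 5 bases on each side, 5′ to 3′ on the gene's strand, from the GENCODE transcripts of GRCm38.
H2afx: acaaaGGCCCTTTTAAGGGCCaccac
Hist1h1c: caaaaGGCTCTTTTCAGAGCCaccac
Hist1h1d: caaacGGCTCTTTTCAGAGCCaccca
Hist1h2bg: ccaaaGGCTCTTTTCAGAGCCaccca
Hist1h4i: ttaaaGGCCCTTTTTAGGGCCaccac
Hist2h3c1: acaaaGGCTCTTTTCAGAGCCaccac
Hist2h3c2: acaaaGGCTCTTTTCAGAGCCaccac
Hist3h2a: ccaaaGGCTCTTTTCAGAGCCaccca
Hist4h4: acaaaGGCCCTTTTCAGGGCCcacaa
The sites lie at chr9:44335235-44335260 for H2afx, chr13:23739507-23739532 for Hist1h1c, chr13:23555782-23555807 for Hist1h1d, chr13:23571838-23571863 for Hist1h2bg, chr3:96247322-96247347 for Hist2h3c1 and chr11:58955167-58955192 for Hist3h2a, all on the plus strand. On the minus strand are those of Hist1h4i at chr13:22040961-22040986, Hist2h3c2 at chr3:96238480-96238505 and Hist4h4 at chr6:136803993-136804018. All 9 lie in the 3′ UTR, 24 to 54 bases after the stop codon. The same 16 letters occur in the 6 genes Hist1h1c, Hist1h1d, Hist1h2bg, Hist2h3c1, Hist2h3c2 and Hist3h2a. Over all 20964 coding genes searched, 49 (0.234%) had such a stem-loop, and 45 of those 49 were named histone genes.

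Every assembled transcript of these genes ended past the stem-loop. In the 18 libraries, 122 transcripts were assembled on the 9 genes, and all 122 ended downstream of the loop, 106 of them spanning it and 16 starting after it. Hist1h1c, which encodes the linker histone H1.2, ended a median of 832.5 bases past the loop (806 to 881). Hist1h2bg, an H2B gene of the same cluster, ended a median of 1551 bases past it (1256 to 1848 in 12 libraries). The H2A gene Hist3h2a ended a median of 863 bases past the loop (416 to 1142), Hist1h4i, an H4 gene, a median of 310.5 bases (289 to 466), and H2afx, the H2A.X gene, a median of 824 bases (803 to 928). Hist1h1d, which encodes H1.3, had a transcript in 7 libraries that ended 330 to 1651 bases past the loop. The transcripts of Hist1h2bg ran beyond the gene's annotated end, from chr13 position 23572015 to between 23573114 and 23573706, across 0 other GENCODE genes. They stopped short of the next gene Hist1h2bf at 23573736, which lies on the minus strand, so that its 3′ end faces them. Transcripts without a strand were accepted in placing. How much of this RNA came from Hist1h2bf was not tested. An assembled end is where coverage stops and not a mapped cleavage site.

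**Figure D1:**
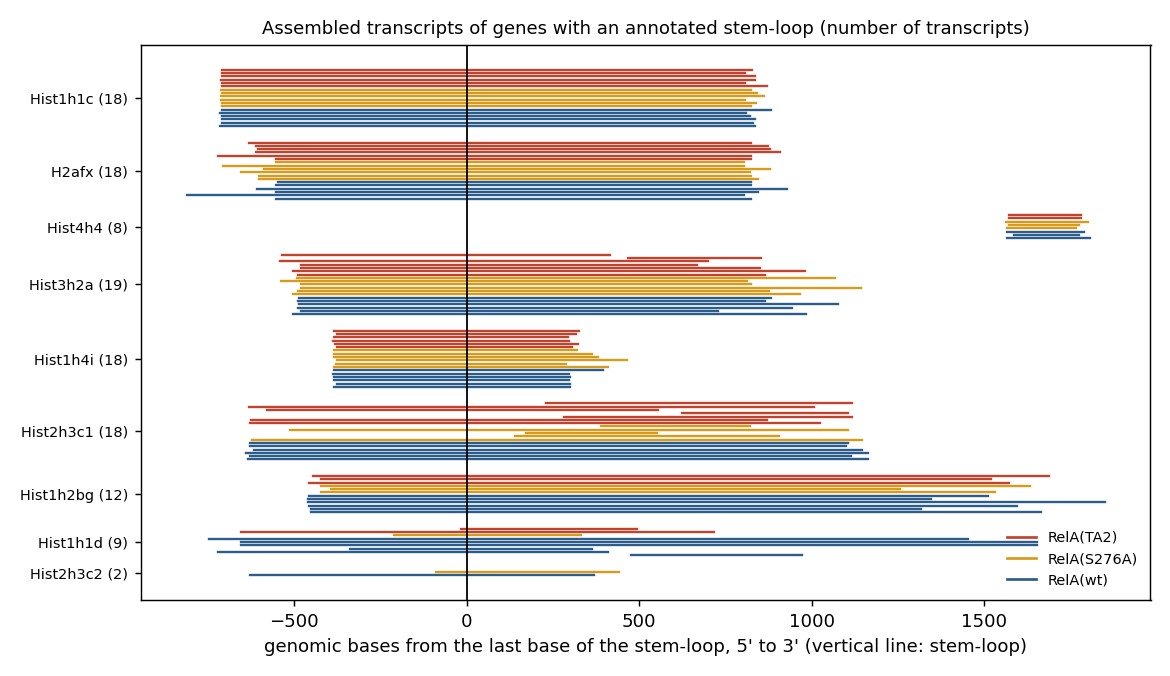
Assembled transcripts of 9 histone genes with a stem-loop, drawn as lines against distance in bases from the last base of the stem-loop (vertical line at 0), one line for each transcript in each library. All 122 lines end to the right of the loop, and 16 of them also start there.

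Genes with and without transcripts differed in their gene models. Cluster genes with a transcript had a median of 880 annotated bases after the stop codon, against 81 bases in the 54 cluster genes without. A poly(A) signal, either AATAAA or its common variant ATTAAA, stood in the last 40 bases of the model of 6 of the 11 cluster genes with a transcript and of 10 of the 54 without, against 16647 of 21877 genes overall (76.1%). Of the 8 single genes, 7 had the signal. These are descriptions of the annotation, with no test. Of 11 listed RNAs without a poly(A) tail, 9 were at 0 in all libraries and Rpph1 was found in 1 library. Rn45s, the ribosomal RNA precursor, had 127 to 174 FPKM in all 18. An RNA that was not assembled, or whose name was missing from the annotation, was also at 0. These zeros therefore cannot show how strictly the libraries selected poly(A) RNA.

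Histone RNA in these libraries came nearly wholly from the single genes. Together the 8 single genes took 1424 to 2096 FPM, and the 11 cluster genes 19.4 to 128 FPM, which was 1.34% to 6.01% of histone fragments. By line, the cluster genes summed to 19.4 to 75.7 FPM in RelA(TA2) cells (median 46.3), 28.8 to 63.3 FPM in RelA(S276A) cells (median 43.5) and 61.6 to 128 in RelA(wt) cells (median 99.7). At each time every RelA(TA2) and RelA(S276A) library lay below both RelA(wt) libraries, with a highest mutant value of 41.05 FPM against a lowest RelA(wt) value of 61.6 FPM at 0 h, 75.7 against 111.5 FPM at 1 h and 63.6 against 87.9 FPM at 2 h. Across different times the ranges overlapped. No test was run on these sums. A large part of them came from Hist1h1c, which in RelA(wt) cells had means of 38.99 FPM at 0 h, 71.09 at 1 h and 67.32 at 2 h. The sums without Hist1h1c were not compared.

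**Figure D2:**
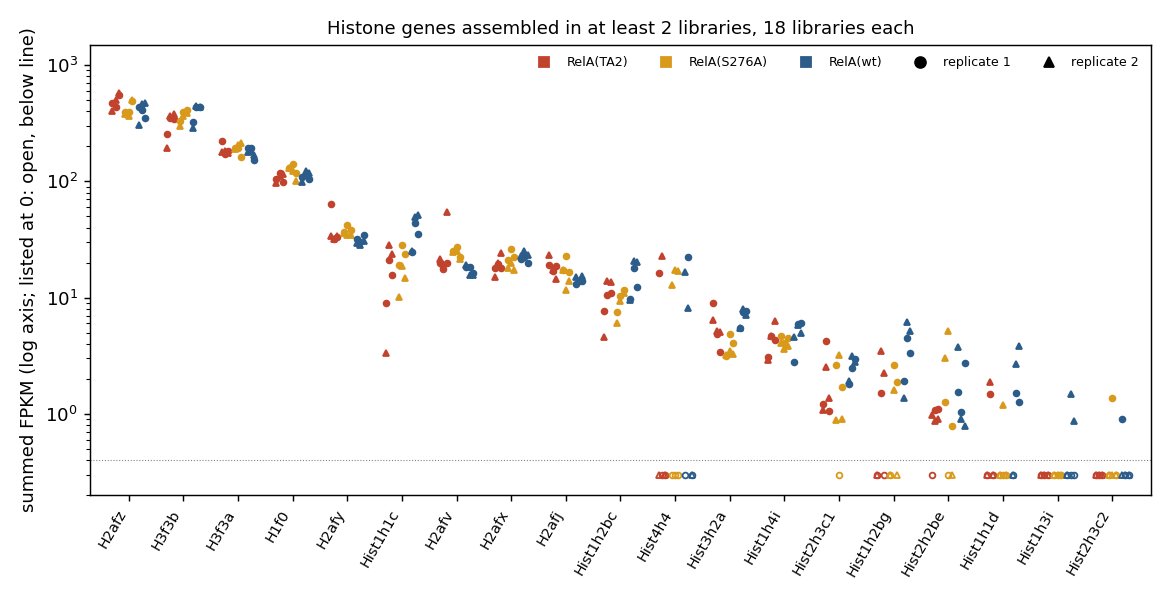
Summed FPKM (log axis) of the 19 histone genes in 18 libraries, with RelA(TA2), RelA(S276A) and RelA(wt) from left to right in each gene, circles for replicate 1 and triangles for replicate 2. Open symbols under the dotted line are libraries in which the gene is listed at 0, and H2afz, H3f3b and H3f3a stand highest in every library.

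Per length, H2afz (306 to 574 FPKM), H3f3b (192 to 442 FPKM) and H3f3a (154 to 221 FPKM) were the highest, followed by H1f0, which encodes the linker histone H1.0 of slowly dividing cells (97.3 to 142 FPKM). H2afz and H3f3b overlapped in range. Next came H2afy (28.6 to 64.2 FPKM), Hist1h1c (3.37 to 51.3 FPKM), H2afv (15.6 to 54.4 FPKM), H2afx (15.03 to 26.3 FPKM), H2afj (11.6 to 23.3 FPKM) and Hist1h2bc (4.57 to 20.7 FPKM), whose ranges overlapped their neighbours'. Histone genes resemble each other, and reads from identical stretches could have been shared out among copies. Of the longest GENCODE transcript of H2afz, 83.5% lay in 50-base stretches that also occur in other genes, and the share was 100% for Hist2h3c1, 53.7% for Hist1h2bg, 40.4% for Hist1h4i, 38.5% for Hist1h2bc, 33% for Hist3h2a, 32.4% for H3f3a, 18% for H3f3b, 14.6% for Hist1h1c and 4.88% for Hist1h1d. The values of genes with a high share are uncertain to that extent.

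TNFα was followed by higher levels of a subset of histone transcripts. Of the 17 tested genes, 5 were higher and 0 lower at 1 h of TNFα than in untreated cells, as the mean over the 3 lines (limma on log2(FPKM + 0.5), adjusted p under 0.05), against 1.92% of all 12236 genes higher and 2.43% lower. At 2 h, 3 genes were higher and 0 lower than untreated, against 3.75% and 5.03% of all genes. The genes higher at 1 h were H3f3b, Hist1h1c, Hist1h1d, Hist1h2bc and Hist1h2bg, and at 2 h H3f3b, Hist1h1c and Hist1h2bc. Among cluster genes 4 of 9 were called at 1 h, with a median log2 difference of 0.81, and among single genes 1 of 8, with a median of 0.04, beside a median of -0.03 over all genes. Hist1h1d passed the filter only through TNFα libraries, so it had to be higher there and its TNFα difference is no test, and without it 4 of 16 genes were higher at 1 h, 3 of 8 in the clusters. The 1 h count was 3 without any 1 of 6 libraries, RelA(TA2) 1 h replicate 2, RelA(S276A) 0 h replicate 2 or 1 h replicate 1, and RelA(wt) 0 h replicate 1, 0 h replicate 2 or 1 h replicate 2. The 2 h count was 5 without RelA(TA2) 2 h replicate 1. Each comparison of TNFα with untreated cells shares the same 6 untreated libraries.

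H3f3b, one of the pair of genes for the replacement histone H3.3, was higher after TNFα in each line. H3f3b had 253 and 192 FPKM in untreated RelA(TA2) cells, 349 and 365 FPKM at 1 h of TNFα and 343 and 381 FPKM at 2 h. H3f3b stood at 332 and 299.8 FPKM in untreated RelA(S276A) cells, 396 and 364 FPKM at 1 h and 409 and 384 FPKM at 2 h. H3f3b reached 326 and 289 FPKM in untreated RelA(wt) cells, 438 and 442 FPKM at 1 h and 440.3 and 434 FPKM at 2 h. All 6 libraries of 1 h and all 6 of 2 h lay above the untreated libraries of their own line, and over all lines they did not overlap the untreated ones. The log2 difference was 0.49 ± 0.07 (SE) at 1 h (adjusted p = 0.00191 by limma) and 0.52 ± 0.07 at 2 h (adjusted p = 0.00125). RelA(TA2) values were below RelA(wt) values at each of the 3 times.

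Its partner H3f3a encodes the same protein. H3f3a had 221 and 180.3 FPKM in untreated RelA(TA2) cells, 172 and 184 FPKM at 1 h of TNFα and 184 and 175 FPKM at 2 h. H3f3a stood at 195 and 189 FPKM in untreated RelA(S276A) cells, 195 and 206 FPKM at 1 h and 162 and 212 FPKM at 2 h. H3f3a reached 192 and 179 FPKM in untreated RelA(wt) cells, 192 and 182 FPKM at 1 h and 154 and 169 FPKM at 2 h. These values overlapped between times and lines for the most part. At 1 h against untreated the log2 difference was -0.03 ± 0.07 (adjusted p = 0.918) and at 2 h -0.13 ± 0.07 (adjusted p = 0.328), by the same limma fit.

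Hist1h1c was the most abundant cluster gene. Hist1h1c had 9.01 and 3.37 FPKM in untreated RelA(TA2) cells, 21.2 and 28.6 FPKM at 1 h of TNFα and 15.6 and 23.96 FPKM at 2 h. Hist1h1c stood at 18.9 and 10.2 FPKM in untreated RelA(S276A) cells, 28.3 and 18.5 FPKM at 1 h and 23.9 and 14.8 FPKM at 2 h. Hist1h1c reached 24.8 and 25.4 FPKM in untreated RelA(wt) cells, 44.2 and 49.4 FPKM at 1 h and 34.96 and 51.3 FPKM at 2 h. The TNFα libraries lay above the untreated ones within RelA(TA2) and within RelA(wt) cells, and overlapped them in RelA(S276A) cells, where replicate 2 was the lower library at all 3 times. The log2 difference was 1.21 ± 0.26 at 1 h (adjusted p = 0.0222 by limma) and 0.96 ± 0.26 at 2 h (adjusted p = 0.0444), and these calls were lost in 7 and 15 of the alternatives tried. Every RelA(TA2) and RelA(S276A) library lay below the RelA(wt) libraries of its own time.

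Hist1h2bc is an H2B gene whose assembled transcripts were unlike those of the genes above. All 18 libraries had a spliced transcript of 2 exons within chr13:23684199-23692480, and its model holds no stem-loop. Hist1h2bc had 7.64 and 4.57 FPKM in untreated RelA(TA2) cells, 10.6 and 13.8 FPKM at 1 h of TNFα and 11.01 and 13.8 FPKM at 2 h. Hist1h2bc stood at 7.52 and 6.07 FPKM in untreated RelA(S276A) cells, 10.3 and 9.28 FPKM at 1 h and 11.8 and 10.9 FPKM at 2 h. Hist1h2bc reached 9.82 and 9.53 FPKM in untreated RelA(wt) cells, 17.99 and 20.7 FPKM at 1 h and 12.4 and 20.1 FPKM at 2 h. The libraries of 1 h and of 2 h were above the untreated ones within each line, and over all lines the 2 h libraries did not overlap the untreated ones. The log2 difference was 0.81 ± 0.15 at 1 h (adjusted p = 0.0101 by limma) and 0.79 ± 0.15 at 2 h (adjusted p = 0.00844).

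Hist1h2bg, whose transcripts ran far past the stem-loop, was not assembled in every library. Hist1h2bg had 0 and 0 FPKM in untreated RelA(TA2) cells, 1.51 and 3.45 FPKM at 1 h of TNFα and 0 and 2.25 FPKM at 2 h. Hist1h2bg stood at 0 and 0 FPKM in untreated RelA(S276A) cells, 2.64 and 1.62 FPKM at 1 h and 1.88 and 0 FPKM at 2 h. Hist1h2bg reached 1.92 and 1.36 FPKM in untreated RelA(wt) cells, 4.497 and 6.13 FPKM at 1 h and 3.35 and 5.17 FPKM at 2 h. It was listed at 0 in all 4 untreated libraries of RelA(TA2) and RelA(S276A) cells, and was present in all 6 libraries of 1 h. The log2 difference at 1 h was 2.10 ± 0.46 (adjusted p = 0.0275 by limma), a fitted value that depends on the amount added to the zeros and is no measure of a fold. This call was lost in 10 alternatives, and the part of the facing gene Hist1h2bf in these values was not tested.

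Hist1h1d was seen only after TNFα. Hist1h1d had 0 and 0 FPKM in untreated RelA(TA2) cells, 1.48 and 1.89 FPKM at 1 h of TNFα and 0 and 0 FPKM at 2 h. Hist1h1d stood at 0 and 0 FPKM in untreated RelA(S276A) cells, 0 and 1.18 FPKM at 1 h and 0 and 0 FPKM at 2 h. Hist1h1d reached 0 and 0 FPKM in untreated RelA(wt) cells, 1.51 and 2.68 FPKM at 1 h and 1.27 and 3.87 FPKM at 2 h. It was listed at 0 in all 6 untreated libraries, and in 5 of the 6 libraries of 1 h it had a transcript, with 0.447 to 5.32 FPM. The fitted log2 difference at 1 h was 1.78, with the same limit, and it is given as a description. In RelA(TA2) cells it was present at 1 h and at 0 at 2 h, while in RelA(wt) cells it was present at both times.

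**Figure D3:**
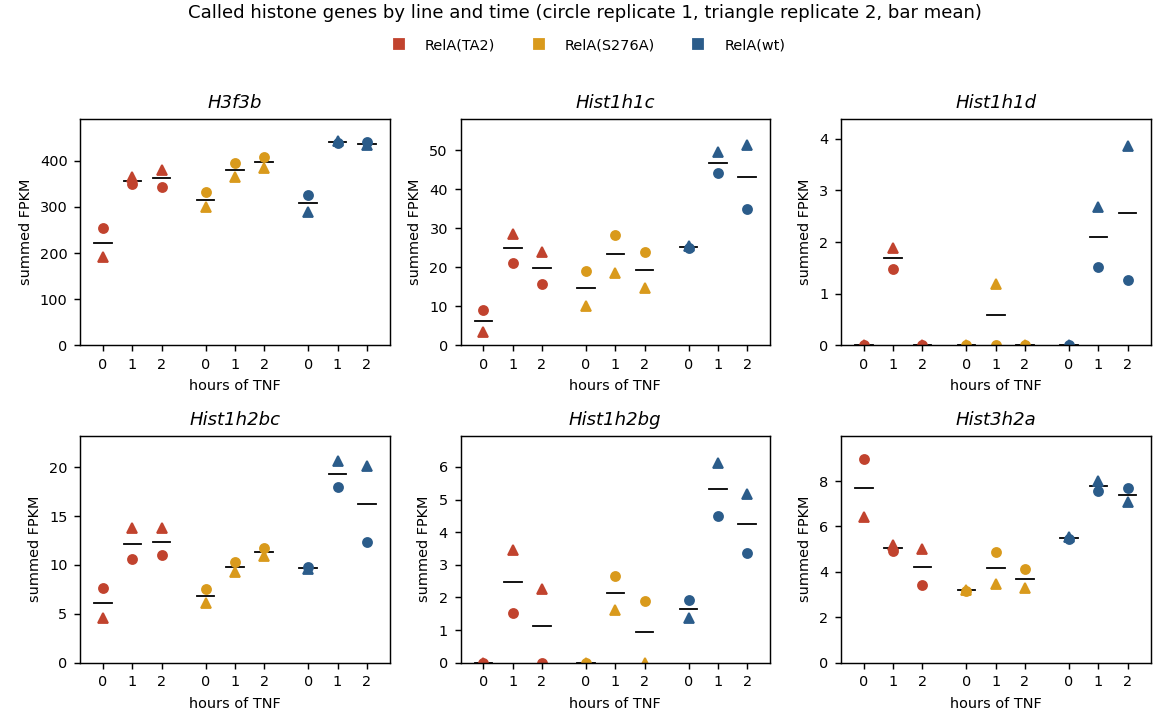
FPKM of the 6 histone genes called in a comparison (H3f3b, Hist1h1c, Hist1h1d, Hist1h2bc, Hist1h2bg, Hist3h2a) by line and time, RelA(TA2), RelA(S276A) and RelA(wt) from left to right, points for the 2 libraries and bars for their mean. H3f3b and Hist1h2bc stand higher at 1 h and 2 h than at 0 h in each line, and the RelA(wt) points of Hist1h1c lie above those of the other lines at each time.

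At 2 h against 1 h of TNFα, 0 of the 17 genes were called (limma), against 5.29% of all genes higher and 5.82% lower. With an unadjusted p under 0.05 there were 2. Within single lines, where each comparison rests on 2 libraries a side, 3 calls were made. RelA(TA2) cells had H3f3b (0.69, adjusted p = 0.0141) and Hist1h1c (2.05, adjusted p = 0.0453) higher at 1 h, against 1.1% of all genes, and H3f3b (0.71, adjusted p = 0.0093) at 2 h, against 1.89%. The Hist1h1c call was lost in 17 alternatives and each H3f3b call in 2. In RelA(S276A) cells 0 were called at either time, against 1.5% and 0.973% of all genes in either direction. At an unadjusted p under 0.05 there were 1 gene at 1 h and 3 at 2 h. In RelA(wt) cells 0 were called as well, against 1.63% and 1.87%. Those at an unadjusted p under 0.05 numbered 5 and 4. No all-gene share was counted at the unadjusted threshold, so these unadjusted numbers have no background to be read against. H3f3b in RelA(wt) cells had log2 differences of 0.52 at 1 h (adjusted p = 0.0749) and 0.51 at 2 h (adjusted p = 0.0714).

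Whether the response differed between lines was tested directly. For RelA(TA2) minus RelA(wt), 0 histone genes differed at 1 h and 0 at 2 h by limma, against 0.294% and 0.253% of all genes. At an unadjusted p under 0.05 there were 1 and 2, with no all-gene share at that threshold. For RelA(S276A) minus RelA(wt), 0 differed at either time, against 0.188% and 0.172%, and again 1 and 2 had an unadjusted p under 0.05. For Hist3h2a the response in RelA(TA2) cells minus that in RelA(wt) cells was -1.02 on the log2 scale at 1 h (adjusted p = 0.288) and -1.19 at 2 h (adjusted p = 0.249), and neither passed.

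The fragment values gave a wider set of calls in a background that was wider too. At 1 h against untreated, 6 of 16 tested histone genes were higher and 0 lower by limma, against 5.77% and 10.8% of 11763 genes, and the gene added to the 5 above was H2afx (0.26). Hist1h1d, which entered through TNFα libraries, is among these 6 and among the fragment calls within RelA(wt) cells. At 2 h, 5 were higher and 0 lower, against 12.3% and 26.2%, with H2afz (0.30) and Hist1h4i (0.33) besides H3f3b, Hist1h1c and Hist1h2bc. At 2 h against 1 h, 1 gene was higher, H2afz (0.40), against 17.9% of all genes. The lower ones were 2, H1f0 (-0.19) and Hist1h1d (-1.15), against 23.7%. Hist1h1d passed the fragment filter only with the help of 1 h libraries, so its lower call here is no test. Within lines, 3 genes were higher at 1 h in RelA(TA2) cells against 3.61% of all genes, and 5 at 2 h against 9%. In RelA(wt) cells 3 were higher at 1 h against 3.43%, and 3 at 2 h against 6.18%. RelA(S276A) cells had 0 at either time, against 6.19% and 10.3% in either direction. By an unadjusted p under 0.05 there were 4 at each time, again with no all-gene share at that threshold. Differences in response numbered 0 in all 4 comparisons, against 1.74% and 0.306% for RelA(TA2) at 1 h and 2 h and 0.247% and 0.238% for RelA(S276A).

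**Figure D4:**
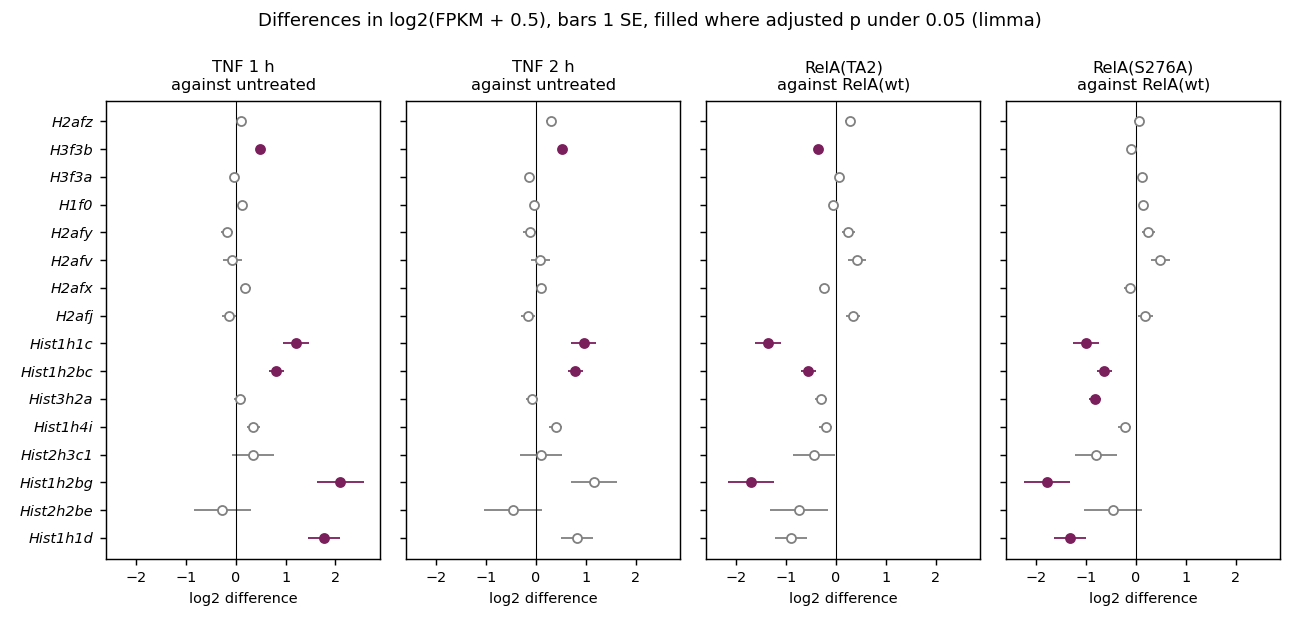
Log2 differences of FPKM with bars of 1 SE for 16 tested histone genes (Hist4h4 left out for its large SE) in 4 comparisons: TNFα at 1 h and at 2 h against untreated, RelA(TA2) against RelA(wt) and RelA(S276A) against RelA(wt). Filled points have an adjusted p under 0.05, all to the right of 0 for TNFα and all to the left for the lines.

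Both mutant lines had lower levels of several cluster transcripts than RelA(wt) cells. As the mean over the 3 times, RelA(TA2) cells had 0 of the 17 histone genes higher and 4 lower than RelA(wt) cells (limma), against 5.71% and 6.02% of all genes. In RelA(S276A) cells 0 were higher and 5 lower, against 7.21% and 5.38%. The RelA(TA2) count was 2 without RelA(TA2) 1 h replicate 1 or any 1 of RelA(wt) 0 h replicate 2, 1 h replicate 1 and 1 h replicate 2. The RelA(S276A) count was 1 to 3 without any 1 of 8 libraries, RelA(S276A) 0 h replicates 1 and 2 and 2 h replicate 2, and RelA(wt) 0 h replicates 1 and 2, 1 h replicates 1 and 2 and 2 h replicate 2. The median log2 difference of the 9 cluster genes was -0.68 for RelA(TA2) and -0.80 for RelA(S276A), beside 0.01 and 0.02 over all genes, and that of the 8 single genes was 0.16 and 0.13. Both comparisons share the 6 RelA(wt) libraries, so they are not independent of each other.

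The log2 difference of Hist1h1c from RelA(wt) was -1.37 ± 0.26 in RelA(TA2) cells (adjusted p = 0.00671 by limma) and -0.998 ± 0.257 in RelA(S276A) cells (adjusted p = 0.0286). The difference of Hist1h2bc was -0.56 ± 0.15 for RelA(TA2) (adjusted p = 0.0373) and -0.63 ± 0.15 for RelA(S276A) (adjusted p = 0.0194). At 2 h the RelA(TA2) libraries of Hist1h2bc overlapped the RelA(wt) ones. Hist1h2bg had fitted differences of -1.70 for RelA(TA2) (adjusted p = 0.0386) and -1.78 for RelA(S276A) (adjusted p = 0.0298), both set in part by libraries at 0. H3f3b had a difference of -0.35 ± 0.07 for RelA(TA2) (adjusted p = 0.00924), and that for RelA(S276A) was -0.11 ± 0.07 (adjusted p = 0.394). Hist1h1d was lower in RelA(S276A) cells, with a fitted -1.31 (adjusted p = 0.0219), a value also set in part by libraries at 0. Before TNFα it was at 0 in both of these lines. The RelA(TA2) calls of Hist1h2bc and Hist1h2bg were lost in 12 and 16 alternatives, and the RelA(S276A) calls of Hist1h1c, Hist1h2bg, Hist1h1d and Hist1h2bc in 8, 9, 4 and 2. Without RelA(wt) 1 h replicate 2 the RelA(S276A) count was 1. A difference called in the one mutant line and not in the other was not tested between the mutant lines.

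Hist3h2a, an H2A gene of the small Hist3 cluster, had the smallest adjusted p of the histone genes in FPKM between RelA(S276A) and RelA(wt) cells. Hist3h2a had 8.96 and 6.404 FPKM in untreated RelA(TA2) cells, 4.896 and 5.17 FPKM at 1 h of TNFα and 3.42 and 5.02 FPKM at 2 h. Hist3h2a stood at 3.17 and 3.196 FPKM in untreated RelA(S276A) cells, 4.89 and 3.45 FPKM at 1 h and 4.103 and 3.301 FPKM at 2 h. Hist3h2a reached 5.44 and 5.52 FPKM in untreated RelA(wt) cells, 7.58 and 8.01 FPKM at 1 h and 7.69 and 7.08 FPKM at 2 h. All 6 RelA(S276A) libraries lay below all 6 RelA(wt) libraries. The log2 difference was -0.82 ± 0.12 (adjusted p = 0.00153 by limma). In RelA(TA2) cells the FPKM were above the RelA(wt) ones when untreated and below them at 1 h and 2 h, with an overall difference of -0.30 ± 0.12 (adjusted p = 0.151). Untreated RelA(TA2) cells had 5.57 and 7.45 FPM against 7.26 and 7.27 in untreated RelA(wt) cells.

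By fragments, RelA(TA2) cells had 3 genes higher and 8 lower than RelA(wt) cells, against 20.7% and 21% of all 11763 genes. The 4 genes above were among the 8, joined by H2afx (-0.22), Hist1h1d (-1.17), Hist2h3c1 (-1.13) and Hist3h2a (-0.59), and the higher ones were H2afv (0.16), H2afy (0.13) and H2afz (0.34). In RelA(S276A) cells 2 were higher and 6 lower, against 24.2% and 20.6%. The lower ones were the 5 above and Hist2h3c1 (-1.95), the higher ones H2afv (0.49) and H2afy (0.31). Hist1h1d passed the fragment filter only with the help of RelA(wt) libraries, so its lower calls in both mutant lines are no test.

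Apart from H3f3b, no single gene was called in FPKM. H2afz encodes H2A.Z, the H2A variant found at promoters. H2afz had 471 and 406 FPKM in untreated RelA(TA2) cells, 434 and 496 FPKM at 1 h of TNFα and 556 and 574 FPKM at 2 h. H2afz stood at 396 and 379.9 FPKM in untreated RelA(S276A) cells, 392 and 368 FPKM at 1 h and 494 and 505 FPKM at 2 h. H2afz reached 433 and 306 FPKM in untreated RelA(wt) cells, 413 and 459 FPKM at 1 h and 348 and 472 FPKM at 2 h. In RelA(TA2) and RelA(S276A) cells the 2 h libraries lay above the untreated ones, and in RelA(wt) cells they overlapped. The log2 difference was 0.30 ± 0.10 at 2 h (adjusted p = 0.0992 by limma) and 0.28 ± 0.10 for RelA(TA2) against RelA(wt) (adjusted p = 0.105), neither past the threshold in FPKM. By fragments both passed, as given above, and H2afz was also higher at 2 h than at 1 h.

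H2afv encodes H2A.Z.2, a close relative. H2afv had 19.7 and 21.3 FPKM in untreated RelA(TA2) cells, 17.7 and 19.4 FPKM at 1 h of TNFα and 19.8 and 54.4 FPKM at 2 h. H2afv stood at 25.1 and 24.8 FPKM in untreated RelA(S276A) cells, 27.4 and 25.1 FPKM at 1 h and 22.5 and 21.4 FPKM at 2 h. H2afv reached 18.2 and 19.1 FPKM in untreated RelA(wt) cells, 18.5 and 15.6 FPKM at 1 h and 16.4 and 15.6 FPKM at 2 h. The high FPKM of RelA(TA2) replicate 2 at 2 h was not seen in the fragment values, which were 31.1 and 30.9 FPM. H2afv had 19 transcripts over the 18 libraries, so its fragment values can hold estimates from transcript length. All 6 RelA(S276A) libraries were above all 6 RelA(wt) libraries. The log2 difference of 0.49 ± 0.19 for RelA(S276A) against RelA(wt) did not pass in FPKM (adjusted p = 0.128 by limma) and passed by fragments (0.49 ± 0.05, adjusted p = 1.97e-05).

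H2afx encodes H2A.X, which is phosphorylated around DNA breaks. H2afx had 18.1 and 15.03 FPKM in untreated RelA(TA2) cells, 19.5 and 19.7 FPKM at 1 h of TNFα and 18.1 and 24.2 FPKM at 2 h. H2afx stood at 21 and 17.98 FPKM in untreated RelA(S276A) cells, 26.3 and 20.04 FPKM at 1 h and 22.2 and 17.2 FPKM at 2 h. H2afx reached 21.5 and 22.7 FPKM in untreated RelA(wt) cells, 22.6 and 25.2 FPKM at 1 h and 19.96 and 23.2 FPKM at 2 h. Untreated RelA(TA2) and RelA(S276A) libraries lay below the untreated RelA(wt) ones. The log2 difference at 1 h of TNFα was 0.19 ± 0.11 (adjusted p = 0.463 by limma) in FPKM and 0.26 ± 0.08 (adjusted p = 0.0359) by fragments. H2afx is the single gene that carries a stem-loop, as 8 of the 11 cluster genes with a transcript do.

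H2afy encodes macroH2A1, a large H2A variant. H2afy had 64.2 and 33.7 FPKM in untreated RelA(TA2) cells, 32.1 and 32.1 FPKM at 1 h of TNFα and 33.2 and 33.7 FPKM at 2 h. H2afy stood at 36.6 and 35.7 FPKM in untreated RelA(S276A) cells, 42.02 and 34.5 FPKM at 1 h and 37.9 and 34.8 FPKM at 2 h. H2afy reached 31.9 and 29.7 FPKM in untreated RelA(wt) cells, 30.1 and 28.6 FPKM at 1 h and 34.8 and 30.6 FPKM at 2 h. The high FPKM of untreated RelA(TA2) replicate 1 was not seen in the fragments, with 59.5 and 65.7 FPM. H2afy had 39 transcripts over the 18 libraries, so its fragment values can hold estimates from transcript length. RelA(S276A) values were above RelA(wt) values at 0 h and 1 h and met them at 2 h. The log2 difference of 0.25 ± 0.13 did not pass in FPKM (adjusted p = 0.261 by limma) and that by fragments did (0.31 ± 0.05, adjusted p = 0.000266).

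H1f0 is the gene of H1.0. H1f0 had 105 and 97.3 FPKM in untreated RelA(TA2) cells, 118 and 112 FPKM at 1 h of TNFα and 98.4 and 115 FPKM at 2 h. H1f0 stood at 129.6 and 131 FPKM in untreated RelA(S276A) cells, 142 and 123 FPKM at 1 h and 117 and 100.3 FPKM at 2 h. H1f0 reached 109 and 99.3 FPKM in untreated RelA(wt) cells, 114 and 122 FPKM at 1 h and 105 and 117 FPKM at 2 h. Values at 1 h were above untreated values in RelA(TA2) and RelA(wt) cells and overlapped them in RelA(S276A) cells. The log2 difference was 0.13 ± 0.06 at 1 h (adjusted p = 0.411 by limma) and 0.15 ± 0.06 for RelA(S276A) against RelA(wt) (adjusted p = 0.164).

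H2afj encodes H2A.J. H2afj had 19.2 and 23.3 FPKM in untreated RelA(TA2) cells, 16.96 and 17.3 FPKM at 1 h of TNFα and 18.6 and 14.4 FPKM at 2 h. H2afj stood at 17.2 and 17.4 FPKM in untreated RelA(S276A) cells, 22.7 and 11.6 FPKM at 1 h and 16.7 and 13.9 FPKM at 2 h. H2afj reached 13.04 and 14.9 FPKM in untreated RelA(wt) cells, 13.8 and 13.9 FPKM at 1 h and 13.96 and 15.4 FPKM at 2 h. RelA(TA2) values were above RelA(wt) values when untreated and at 1 h, and overlapped them at 2 h. The log2 difference of 0.34 ± 0.14 for RelA(TA2) against RelA(wt) did not pass (adjusted p = 0.169 by limma).

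The remaining cluster genes were low. Hist1h4i, a gene for H4, had a transcript in all 18 libraries. Hist1h4i had 3.06 and 2.89 FPKM in untreated RelA(TA2) cells, 4.72 and 4.698 FPKM at 1 h of TNFα and 4.29 and 6.28 FPKM at 2 h. Hist1h4i stood at 4.69 and 4.06 FPKM in untreated RelA(S276A) cells, 4.07 and 3.62 FPKM at 1 h and 4.49 and 3.82 FPKM at 2 h. Hist1h4i reached 2.78 and 4.602 FPKM in untreated RelA(wt) cells, 5.97 and 5.87 FPKM at 1 h and 6.08 and 4.96 FPKM at 2 h. In RelA(TA2) and in RelA(wt) cells the libraries of 1 h and 2 h lay above the untreated ones, and in RelA(S276A) cells they did not. At 2 h the log2 difference was 0.40 ± 0.13 (adjusted p = 0.0854 by limma) in FPKM and 0.33 ± 0.10 (adjusted p = 0.0261) by fragments.

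Hist2h3c1, a gene for H3.2, had a transcript in 17 libraries, with 0.673 to 5.75 FPM where it was present. It had 0.924 to 2.54 FPM in RelA(TA2) cells, 0 to 1.61 in RelA(S276A) cells and 3.19 to 5.75 in RelA(wt) cells. No mutant library reached the lowest RelA(wt) library on this scale. On the FPKM scale the lines overlapped, and the log2 difference was -0.44 ± 0.42 for RelA(TA2) and -0.80 ± 0.42 for RelA(S276A) (adjusted p = 0.586 and 0.268 by limma). Since the whole of its transcript recurs in other genes, its reads and those of other H3 genes cannot be told apart.

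Hist2h2be, an H2B gene, had 0 to 5.21 FPKM from at most 41 fragments a library. Hist4h4, an H4 gene, was listed at 0 or at 8.13 to 22.9 FPKM from at most 19.2 fragments, on pieces that started after the stem-loop. Hist1h3i was found in 2 libraries of RelA(wt) cells, replicate 2 at 1 h and at 2 h, with 1.47 and 0.875 FPKM. Hist2h3c2 was found in 1 RelA(S276A) library and 1 RelA(wt) library, with 1.37 and 0.905 FPKM. No difference of Hist2h2be or Hist4h4 passed the test, and the other two were not tested.

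The windows before the start sites were read for the most abundant cluster gene and for the single gene called at both times. The 250 bases upstream of the RefSeq start (GRCm38.p6) follow, 5′ to 3′ on the gene's strand, with capitals on matches to the motifs named after them.
Hist1h1c: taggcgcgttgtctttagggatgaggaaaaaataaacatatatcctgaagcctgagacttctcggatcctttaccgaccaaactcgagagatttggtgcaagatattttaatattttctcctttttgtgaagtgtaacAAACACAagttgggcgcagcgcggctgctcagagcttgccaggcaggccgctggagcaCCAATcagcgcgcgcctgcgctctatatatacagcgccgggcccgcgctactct
H3f3b: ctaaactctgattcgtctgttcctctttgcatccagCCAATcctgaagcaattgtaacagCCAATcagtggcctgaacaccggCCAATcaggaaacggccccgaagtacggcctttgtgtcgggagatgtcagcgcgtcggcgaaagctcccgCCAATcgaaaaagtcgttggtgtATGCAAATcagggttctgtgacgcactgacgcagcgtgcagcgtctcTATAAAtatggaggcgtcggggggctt
Hist1h1c lies on the plus strand, with this stretch at chr13:23738557-23738806, and H3f3b on the minus strand, at chr11:116024505-116024754. The motifs were searched on both strands. They were the CCAAT box with the letters CCAAT, the TATA box with TATAAA, the octamer with ATTTGCAT, which is printed for H3f3b as its reverse complement, the AC box of H1 genes with AAACACA, and a loose κB motif, GGGNNNNNCC. Over 32851 windows of 300 bases, 250 before and 50 after the start, the CCAAT box occurred in 37.4%, the TATA box in 13.6%, the octamer in 1.74%, the AC box in 7.18% and the κB motif in 50.8%. Hist1h1c had a CCAAT box at -54 and an AC box at -112 bases from the start, and H3f3b had CCAAT boxes at -214, -190, -167 and -97, the octamer at -74 and a TATA box at -27. The letters of the κB motif were found in neither window, and those of the TATA box were not found in that of Hist1h1c. Over the 16 histone genes with a window, the κB letters were in 10, Hist1h1d (at -2), Hist1h4i, Hist1h3i, Hist2h3c1, Hist2h3c2, H1f0, H2afv, H2afy, H2afz and H3f3a. The CCAAT box was in 12 of the 16, the TATA box in 5, and the octamer and the AC box in 3 each.

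Genes that work on histone RNA and protein were described from fixed lists. Of 24 tested genes for processing and transcription of histone mRNA, 0 were higher and 0 lower at 1 h of TNFα, and 0 were higher and 1 lower at 2 h. The shares of all genes were 1.92% higher and 2.43% lower at 1 h and 3.75% and 5.03% at 2 h. In RelA(S276A) against RelA(wt) cells 3 were higher and 0 lower, Slbp (0.36 ± 0.07, adjusted p = 0.00518 by limma), Fip1l1 and Ncbp2 (0.17), where 7.21% of all genes were higher, and in RelA(TA2) cells 0 passed. Slbp is the protein that binds the stem-loop, and Ncbp2 is part of the cap-binding complex. Fip1l1, a subunit of the poly(A) machinery, was lower at 2 h than at 1 h (-0.28), where 5.82% of all genes were lower. Of 14 decay genes, 2 were higher in RelA(S276A) cells, against the same 7.21%. They were Eri1 (0.49), the exonuclease that trims the stem-loop end, and Dcp2 (0.71), the decapping enzyme. Upf1 (0.28) was higher at 2 h than at 1 h, where 5.29% of all genes were higher.

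Of 21 histone chaperone and acetyltransferase genes, RelA(TA2) cells had 4 higher and 1 lower than RelA(wt) cells, and RelA(S276A) cells 5 higher and 1 lower, where all genes had 5.71% and 6.02% for RelA(TA2) and 7.21% and 5.38% for RelA(S276A). They included Chaf1b (0.78) and Chaf1a (0.57), which load new H3 and H4 behind the fork, and Anp32e (0.58), which removes H2A.Z, all in RelA(S276A) cells. After TNFα, 1 was lower at 1 h and 3 at 2 h, against 2.43% and 5.03% of all genes, and 0 were higher.

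A good part of the S phase genes were higher in RelA(S276A) cells. Of 28 S phase genes, 16 were higher and 0 lower in RelA(S276A) than in RelA(wt) cells, against 7.21% and 5.38% of all genes, with a median log2 difference of 0.56. In RelA(TA2) cells 4 of the 28 were higher and 0 lower, against 5.71% and 6.02%, with a median of 0.31, and the other 24 did not pass. The median over all genes was 0.02 and 0.01. The smallest adjusted p belonged to Mcm6 (0.60), Mcm7 (0.76) and Cdc45 (0.73), parts of the replicative helicase, in RelA(S276A) cells. Of 12 genes of G2 and mitosis, 5 were higher in RelA(S276A) cells, among them Mki67 (0.72), Aurka (0.52) and Cdc20 (0.55), and 2 in RelA(TA2) cells, against the same shares of all genes. At 1 h and 2 h of TNFα, 0 of the 28 and 0 of the 12 were called by limma, and by fragments 0 and 0 at 1 h. By fragments 3 of the 28 and 5 of the 12 were lower at 2 h, where 26.2% of all genes were lower. Cenpa, the centromeric H3 variant outside the rule, was higher in RelA(S276A) cells (0.87, adjusted p = 0.0132). The part of these cell cycle genes in the histone differences was not tested.

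**Figure D5:**
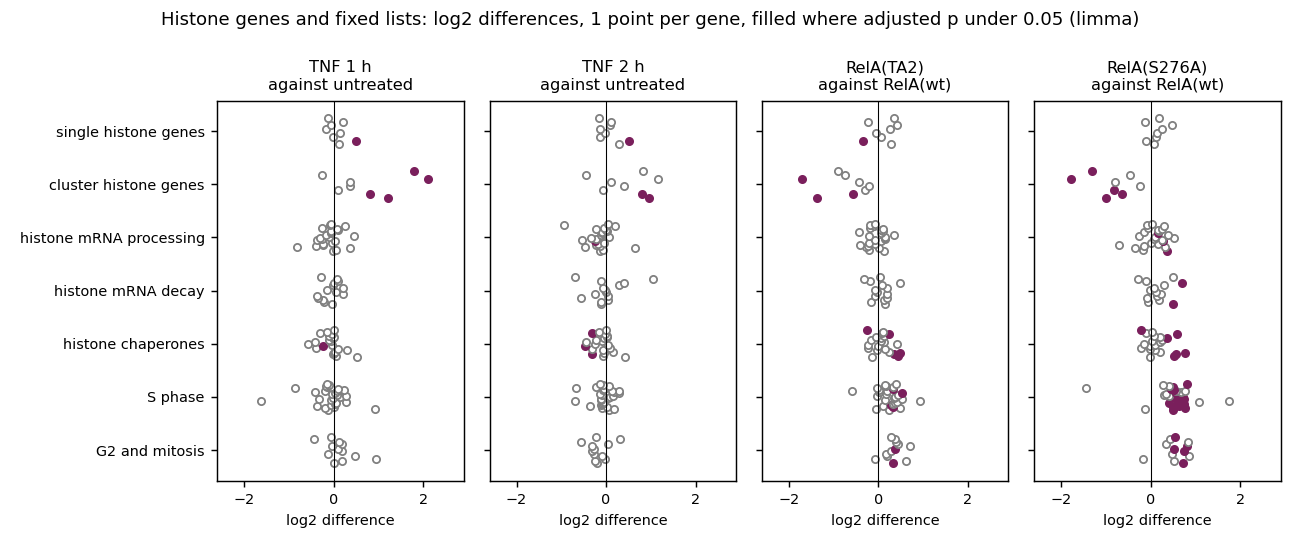
Log2 differences of FPKM for each tested histone gene (Hist4h4 left out) and for the genes of 5 fixed lists, in 4 comparisons, TNFα at 1 h and 2 h against untreated and RelA(TA2) and RelA(S276A) against RelA(wt). For RelA(S276A), the S phase genes have a median of 0.56 and the histone genes spread to both sides of 0.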

How the data were processed

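RNA was read from poly(A)-primed TruSeq libraries of 18 samples. The submitters' processing notes name CASAVA 1.8.2, TopHat2 2.0.5, Bowtie2 2.0.0.7, Cufflinks 2.0.2 and the build mm10. By the study's methods, mapping was done with TopHat and assembly with Cufflinks, here library by library. The deposited FPKM values belong to those assembled transcripts, so a gene with too few reads to be assembled is at 0, which is not a measured absence. The study's own test, which needs the aligned reads, was not run here.

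Each transcript was placed on the gene of the merged annotation in which at least 50% of its bases lie or of which it covers 50%, and FPKM were summed by gene. At loci with 1 transcript, the fragments behind each FPKM were recovered from its confidence limit. There 88.9% to 90.2% of values under 500 fragments came out whole within 0.02. At other loci the fragments were estimated from FPKM and transcript length, by a curve fitted to the loci with 1 transcript, without such a check. Recovered and estimated fragments came to 22.5 to 28.2 M a library, 95.5% to 98.4% of them in annotated genes. The 12236 genes that reached 1 FPKM in 2 or more libraries entered the test, limma 3.58.1 under R 4.3.3 with log2(FPKM + 0.5) as the value, with 1 mean for each of the 9 conditions, 9 residual degrees of freedom, a variance trend, two-sided tests and Benjamini-Hochberg adjustment over all genes, and log2 differences are on that scale, which understates changes of low genes. The median residual SD was 0.299 in FPKM and 0.105 by fragments. The code was tested on simulated data. Python 3.11.15 with numpy 2.4.6 and matplotlib 3.10.9 did the rest.

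Values in every library are given for genes called in a comparison, for the single genes and for the 5 cluster genes with the most fragments. From each fixed list, up to 3 called genes with the smallest adjusted p are named. Members and lists were chosen with earlier results of these data known. Alternatives were the measure, the added amount, filters, placing, scaling, zeros, trend, samples in the fit, a replicate block and leaving out each library. Stem-loops were read from GENCODE M21 transcripts on GRCm38, the assembly of mm10, and promoters from RefSeq (GRCm38.p6, 16 of the 19 genes matched).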

Additional observations from a re-analysis of the deposited data

How the results depend on the processing

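Of 20 histone gene results that passed the threshold, 8 kept it in all alternatives run: H3f3b at 1 h, at 2 h and in RelA(TA2) cells, Hist1h2bc at 1 h and 2 h, Hist1h1c in RelA(TA2) cells, Hist3h2a in RelA(S276A) cells and Hist1h1d at 1 h, whose place in the test came from TNFα libraries, so that its call says nothing about stability. None of the 20 turned round. With recovered fragments, the number of histone genes called was 5 at 2 h against untreated (3 in FPKM) and 3 at 2 h against 1 h (0). It was 11 for RelA(TA2) (4), 8 for RelA(S276A) (5) and 14 within lines (3). Of all 11763 genes, the higher and lower shares were 12.3% and 26.2% at 2 h and 17.9% and 23.7% at 2 h against 1 h. They were 20.7% and 21% for RelA(TA2) and 24.2% and 20.6% for RelA(S276A). Hist1h1d, whose fragment calls are no test, is in all of these counts but the first. With single zeros set to missing the counts were 6 at 2 h, 2 at 2 h against 1 h, 17 within lines and 3 for differences in response (0 in the main test). Of all 12236 genes, 811 were then higher and 1166 lower at 2 h, against 459 and 616 in the main test. At 2 h against 1 h there were 1063 and 1206, against 647 and 712. For the other counts no all-gene share was counted. An added amount of 0.1 gave 1 call at 2 h against 1 h, where 670 of 12236 genes were higher and 740 lower. Fitting the compared conditions alone gave 0 calls within lines. Replicate numbers did not pair the samples (correlations of same-numbered deviations from -0.08 to 0.07 in 36 pairs, 0 above 0.1). The replicate block gave 2 calls for RelA(TA2), where 684 of 12236 genes were higher and 690 lower. With recovered fragments it gave 5 at 2 h, 3 at 2 h against 1 h, 10 for RelA(TA2), 8 for RelA(S276A) and 15 within lines. Of 11763 genes, 1467 were then higher and 3101 lower at 2 h, and 2141 and 2819 at 2 h against 1 h. For RelA(TA2) there were 2452 and 2491, and for RelA(S276A) 2865 and 2432. The cause of these shifts was not tested.

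Leaving out 1 library at a time gave 3 to 5 calls at 1 h, 2 to 5 at 2 h, 0 to 1 at 2 h against 1 h, 2 to 5 for RelA(TA2), 1 to 6 for RelA(S276A), 1 to 8 within lines and 0 to 2 for differences in response. The 1 h count was 3 without RelA(TA2) 1 h replicate 2, RelA(S276A) 0 h replicate 2 or 1 h replicate 1, or RelA(wt) 0 h replicate 1, 0 h replicate 2 or 1 h replicate 2. The 2 h count was 5 without RelA(TA2) 2 h replicate 1, and 1 gene was called at 2 h against 1 h without that library, RelA(S276A) 1 h replicate 1 or RelA(wt) 2 h replicate 2. For RelA(TA2) the count was 2 without RelA(TA2) 1 h replicate 1 or RelA(wt) 0 h replicate 2, 1 h replicate 1 or 1 h replicate 2. For RelA(S276A) it was 1 without RelA(wt) 1 h replicate 2, 2 without RelA(S276A) 0 h replicate 2 or RelA(wt) 2 h replicate 2, and 3 without RelA(S276A) 0 h replicate 1 or 2 h replicate 2 or RelA(wt) 0 h replicate 1, 0 h replicate 2 or 1 h replicate 1. Within lines it was 8 and 6 without RelA(TA2) 0 h replicates 1 and 2, 5 without either RelA(S276A) 1 h library, and 1 without replicate 2 of RelA(TA2) at 1 h or at 2 h. Differences in response numbered 2 without RelA(TA2) 0 h replicate 2 and 1 without RelA(TA2) 2 h replicate 1. Calls of Hist1h1c at 2 h, of Hist1h2bc and Hist1h2bg in RelA(TA2) cells and of Hist1h1c at 1 h within RelA(TA2) cells were lost in 12 to 17 of the alternatives. With 2 libraries a condition, a loss of 1 library leaves a condition with a lone sample that is taken to vary like the others. The number of genes called over all genes moved between these fits too in the pooled comparisons. The histone counts without a library are therefore not a result about the histone genes. Genes near 0, among them Hist1h1d, Hist1h2bg, Hist2h2be and Hist4h4, are limited by assembly rather than by counting alone.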
